A study of Mus musculus with 2 samples.

Results

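The sites described here are positions on chromosomes other than 17 that were joined to the Pou5f1 upstream enhancer in enzyme-based 4C-Seq and that start more than 10 kb from the 5′ end of every annotated protein-coding gene. There were 334 such distal sites among 590 inter-chromosomal interacting sites (56.6%), in a table of 1806 sites. The table was deposited as the sites within reproducible regions, so it is not every site that was sequenced. Each distal site is a HindIII motif of the mouse genome (build mm9, annotation GENCODE M1), and the rule that selects them uses position only.

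Mouse embryonic stem (ES) cells of the E14 line, cross-linked with formaldehyde and grown with LIF and no further treatment, were studied as 1 group of 2 replicates. Chromatin was cut with HindIII and, after ligation, with DpnII, and DNA ligated to the enhancer was amplified and sequenced. The paper calls the 2 samples biological replicates. The labels do not say whether the replicates came from separate cultures, and there was no control or second cell type. The site table does not separate the replicates and holds positions only, so the number of reads behind a site is unknown and sites could not be ranked by strength.

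Pou5f1 encodes Oct4, a transcription factor that ES cells need to stay pluripotent, and its upstream enhancers drive it in these cells. Chromosomes occupy territories in the nucleus, and contacts between them tend to form among gene-rich, transcribed stretches. A site far from every gene start can lie in the interior of a long gene, in the space between genes, or beside an alternative start inside a gene.

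Sequences of 10 distal sites are shown with 30 reference bases on each side of the HindIII motif, which is in capitals (mm9, plus strand, 5′ to 3′). The first 3 lay farthest from any gene start. The first lay between genes at chr6:111593497-111593562, 630 kb from the start of Lmcd1. That is the nearest protein-coding gene start, which need not be the nearest gene.
Farthest site, chromosome 6: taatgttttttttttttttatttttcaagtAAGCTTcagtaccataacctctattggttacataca
The second lay between genes at chr3:150308921-150308986, 572 kb from the start of Rpsa-ps10.
Next site, chromosome 3: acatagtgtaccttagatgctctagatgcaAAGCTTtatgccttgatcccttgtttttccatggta
The third lay in an intron of 1700112E06Rik at chr14:23863758-23863823, 486 kb from the start of Gm5670.
Intronic site, chromosome 14: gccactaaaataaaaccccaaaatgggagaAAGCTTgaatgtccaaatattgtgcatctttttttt

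The next 6 are the 3 closest pairs of distal sites, each formed by neighbouring HindIII motifs and so by both ends of 1 HindIII fragment. The closest pair, 412 bp apart, lay in an intron of Smad6, an inhibitory SMAD of BMP signalling, at chr9:63856030-63856095 and chr9:63856442-63856507.
Smad6 first end: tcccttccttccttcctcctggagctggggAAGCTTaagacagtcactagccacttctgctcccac
Smad6 second end: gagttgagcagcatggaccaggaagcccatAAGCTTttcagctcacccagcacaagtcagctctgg
The second pair, 501 bp apart, lay in an intron of Baz2a, whose protein is a subunit of a complex that silences ribosomal RNA genes, at chr10:127531514-127531579 and chr10:127532015-127532080.
Baz2a first end: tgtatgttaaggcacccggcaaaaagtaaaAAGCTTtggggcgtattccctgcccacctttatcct
Baz2a second end: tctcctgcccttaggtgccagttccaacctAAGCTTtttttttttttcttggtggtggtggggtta
The third pair, 714 bp apart, lay in an intron of Hmcn2, which encodes an extracellular matrix protein, at chr2:31242752-31242817 and chr2:31243466-31243531.
Hmcn2 first end: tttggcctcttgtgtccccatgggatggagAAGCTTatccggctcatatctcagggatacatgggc
Hmcn2 second end: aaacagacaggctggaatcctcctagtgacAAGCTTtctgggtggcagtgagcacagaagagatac
The last is an intronic site of Sfi1, which held more distal sites than any other gene with a body of at most 2 Mb except 1700112E06Rik, with which it tied, at chr11:3078125-3078190.
Sfi1 intronic site: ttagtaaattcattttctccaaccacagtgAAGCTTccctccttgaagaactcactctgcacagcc
Base composition differed widely among these sites. The 1 kb on each side held 36.7% GC at the chromosome 3 site and 56.1% at the first Hmcn2 end. At all 10 sites the 30-base flanks were unique, meaning that neither flank recurs next to another HindIII motif in the genome.

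All distal sites fell in 41 windows of the replicate 1 list of enriched regions, together 111 Mb. Of these windows, 34 were also listed for replicate 2, and each of the other 7 abuts one that was. There are 11 abutting pairs, and joining them gives 30 regions, all with a window listed in both replicates. Every HindIII motif of the same windows that obeyed the same distance rule served as the background. The listed share below is the percentage of such motifs that appear in the site table, with an exact (Clopper-Pearson) 95% interval. These intervals and those of odds ratios cover counting error only, motifs of 1 window are not independent, and no p-value is given. The windows had themselves been called for their many sites, so comparisons of classes were made within them, and values per window or chromosome, given further on, are descriptions that this choice can shape.

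Of 21563 distal motifs, 334 were listed, or 1.55% (1.39 to 1.72%). Motifs within 10 kb of a gene start were listed more often, at 2.67% (256 of 9590, 2.36 to 3.01%), and all motifs together at 1.89%. Distal motifs made up 69.2% of motifs but 56.6% of sites. Within windows the Mantel-Haenszel odds ratio, which compares motifs only with others of their own window, was 0.629 (0.531 to 0.746) for distal over gene-start motifs. The distal share was the lower in 33 of 41 windows and the higher in 8, and it was the lower in 26 of the 30 joined regions.

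The listed share fell in steps with distance from a gene start, and it did so on both sides of the 10 kb limit. It was 3.48% within 2 kb, 2.81% from 2 to 5 kb and 2.13% from 5 to 10 kb. Among distal motifs it was 2.03% from 10 to 20 kb (114 of 5626), 1.71% from 20 to 30 kb, 1.64% from 30 to 50 kb, 1.37% from 50 to 100 kb and 1.32% from 100 to 200 kb. The 10 kb limit therefore separated bins of nearly equal share, with overlapping intervals. Beyond 200 kb it was 0.578% (14 of 2424, 0.316 to 0.967%), and the odds ratio against 10 to 200 kb was 0.376 (0.207 to 0.682) over the 21 windows that hold both. The listed sites nearest the limit were, among distal sites, at 10108 bp from Urb2, 10181 bp from Tax1bp1 and 10191 bp from S100pbp, and, within it, at 9992 bp from Tmem39b, 9984 bp from Cux1 and 9915 bp from Pip5k1c.

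**Figure D1:**
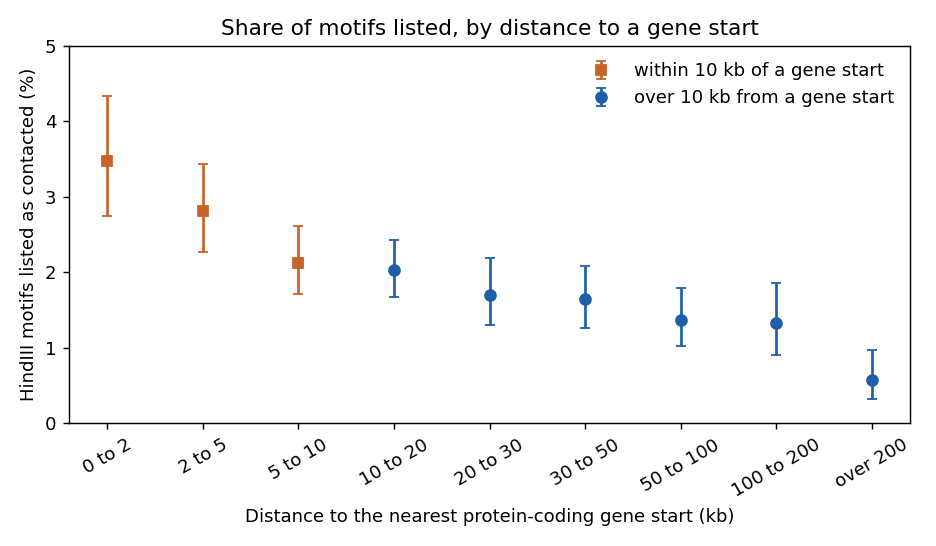
Percentage of HindIII motifs listed as contacted (y axis) by distance in kb to the nearest protein-coding gene start (x axis), with exact 95% intervals; squares are motifs within 10 kb and circles are distal motifs. The share falls from 3.48% within 2 kb to 0.578% beyond 200 kb, with no step at 10 kb.

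The median distal site lay 29.4 kb from a gene start (25.3 to 33.3 kb), against 37.4 kb for distal motifs not listed. Sites reached 630 kb, and 46 of 334 lay over 100 kb away.

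Distal sites were mostly inside genes. Of the 334, 215 (64.4%) lay in the body of a protein-coding gene, against 45.4% of unlisted distal motifs. The listed share was 2.18% in gene bodies (215 of 9858, 1.90 to 2.49%) and 1.02% between genes (119 of 11705, 0.843 to 1.22%). The odds ratio within windows was 1.91 (1.49 to 2.44), and the gene body share was the higher in 31 of 41 windows. Near gene starts the same comparison gave 1.73 (1.32 to 2.28), so the intervals of the distal and gene-start ratios overlapped, and the difference between them was not tested.

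**Figure D2:**
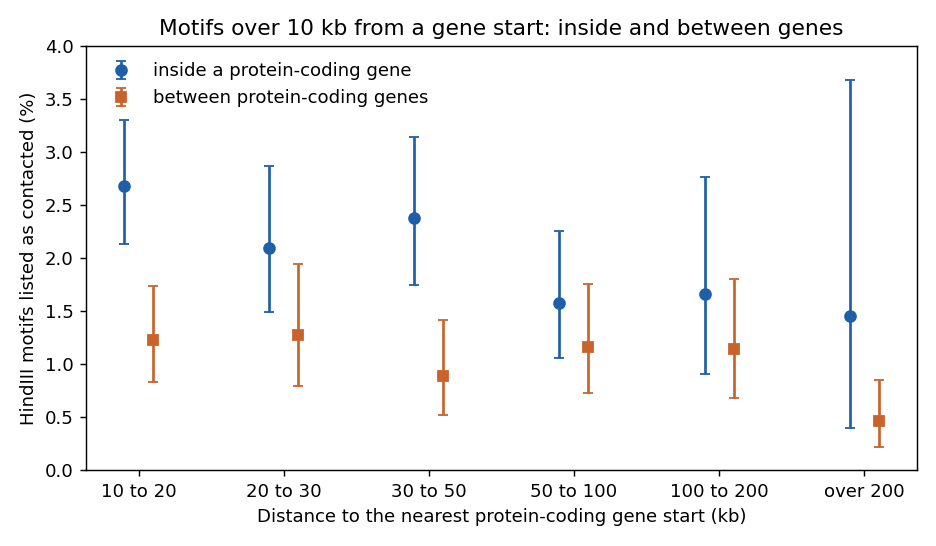
Percentage of distal HindIII motifs listed (y axis) by distance in kb to the nearest protein-coding gene start (x axis), inside protein-coding genes (circles) and between them (squares), with exact 95% intervals. From 10 to 20 kb the shares are 2.68% and 1.23%, and the intervals of the classes overlap from 20 to 30 kb and in every bin beyond 50 kb.

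The comparison of gene bodies with the space between genes was repeated by distance. From 10 to 50 kb the odds ratio was 2.03 (1.51 to 2.75), and beyond 50 kb it was 1.24 (0.746 to 2.06), an interval that includes 1. The difference between these ratios was not tested. Between genes, the share from 10 to 20 kb (1.23%) was close to that from 100 to 200 kb (1.14%), and it was 0.465% beyond 200 kb. In gene bodies the share was 2.68% from 10 to 20 kb and 1.57% from 50 to 100 kb.

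Most gene-body sites were intronic, as were most gene-body motifs. Introns held 193 of the 334 sites (57.8%, against 41.4% of unlisted distal motifs) and exons 22. The listed share was 2.53% in exons (22 of 870) and 2.15% in introns, and the odds ratio of exon over intron was 1.18 (0.752 to 1.86), so a difference was not detectable with 22 exonic sites. With each gene cut into 3 equal parts, the share was 2.35% in the part nearest the 5′ end, 2.29% in the middle and 1.98% in the part nearest the 3′ end, with overlapping intervals.

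The listed share by length of the host gene, taking the shortest where genes overlap, had wide intervals. Motifs in genes of up to 50 kb were listed at 2.56% (2.01 to 3.22%) and in genes of 50 to 100 kb at 2.53%. In genes of 100 to 200 kb the share was 1.96% (1.43 to 2.62%). In genes of 200 to 500 kb the share was 1.39% (0.812 to 2.22%) and in genes of 500 to 2000 kb it was 1.08% (6 of 557, 0.396 to 2.33%). Motifs that lay in no gene but Gm20388, whose body is over 2000 kb, were listed at 2.46% (11 of 448, 1.23 to 4.35%). The intervals of the shortest and longest classes overlapped, and no trend was tested.

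Distal sites also lay more often near an internal start, the annotated 5′ end of another transcript of a protein-coding gene. Of the sites, 88 (26.3%) lay within 10 kb of the 5′ end of another transcript of a protein-coding gene, against 14.8% of unlisted distal motifs. Of these 88, 84 lay in a gene body. Annotated transcripts of every type were counted, and whether these starts are used in ES cells was not tested. Motifs near such an internal start were listed at 2.73% (88 of 3223), close to the 2.67% at gene starts, and the others at 1.34%. The odds ratio was 1.76 (1.36 to 2.27), and within gene bodies it was 1.41 (1.06 to 1.89). With motifs near an internal start left out, the gene body odds ratio was still 1.73 (1.31 to 2.29).

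Other kinds of gene start gave no such difference that could be detected. Starts of genes that are not protein-coding lay within 10 kb of 14.7% of distal sites and of 13.4% of unlisted motifs, with an odds ratio of 1.21 (0.877 to 1.66). Between protein-coding genes, motifs within 10 kb of a gene's 3′ end were listed at 1.49% (21 of 1407), against 0.952% for the others, and their intervals overlapped. Of the 119 sites between protein-coding genes, 8 lay inside a gene of another type, a share of 1.99% (8 of 402, 0.863 to 3.88%), and 111 in no annotated gene, a share of 0.982% (111 of 11303).

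The sequence around distal sites was richer in G and C. The median GC content of 1 kb on each side was 47.7% (47.0 to 48.4%) at distal sites and 44.7% at unlisted distal motifs. Near gene starts it was 49.5% at listed sites and 47.2% at unlisted motifs, so listed sites had the higher GC in both sets. The median number of CpG dinucleotides in these 2 kb was 23 at distal sites and 18 at unlisted distal motifs, and near gene starts it was 28 and 22. With distal motifs split into 5 equal classes of GC content, the listed share rose from 0.668% in the lowest class through 1.08, 1.26 and 1.94% to 2.82% in the highest. The odds ratio above over below the median GC was 1.95 (1.51 to 2.52).

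**Figure D3:**
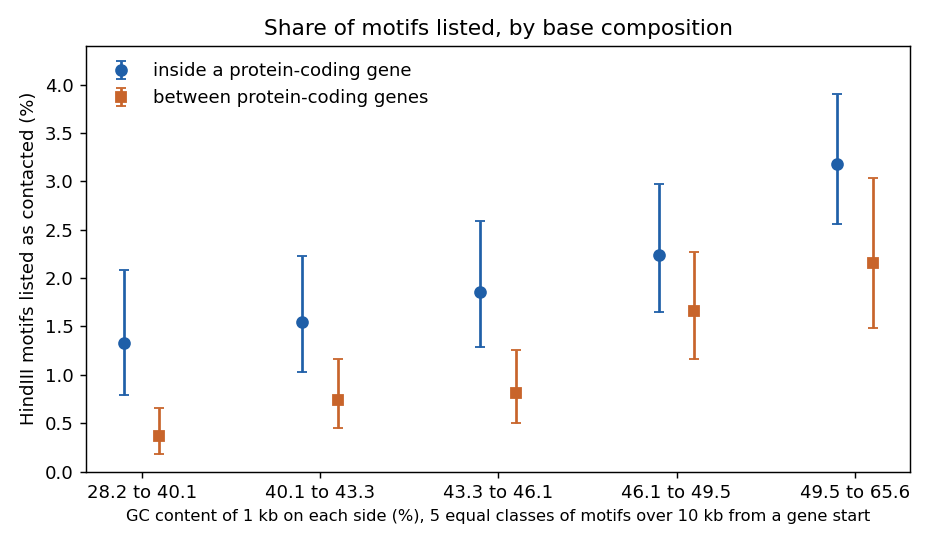
Percentage of distal HindIII motifs listed (y axis) by class of GC content of 1 kb on each side (x axis, percent), inside protein-coding genes (circles) and between them (squares), with exact 95% intervals. Both classes rise with GC, and the gene body share is the higher in each class, from 1.32% against 0.369% in the lowest to 3.18% against 2.16% in the highest.

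Gene bodies were also richer in GC than the space between genes (median 46.0% against 43.7% among unlisted motifs), so both features were set beside each other. In each of the 5 GC classes the gene body share was the higher. The odds ratio of gene body over between genes was 2.83 (1.74 to 4.60) at or below the median GC and 1.46 (1.09 to 1.95) above it.

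The octamer bound by Oct4 and related POU factors was searched as ATGCAAAT, on both strands, in the same 2 kb outside the HindIII motif. It was found at 27 of 334 distal sites (8.08%, 5.39 to 11.5%) and at 15.3% of unlisted distal motifs. Near gene starts it was found at 13 of 256 listed sites (5.08%) and at 10.1% of unlisted motifs, so listed sites had the lower share in both sets. The octamer is rich in A and T, and GC content moved with it: 1213 of the 3269 distal motifs with an octamer lay in the lowest GC class and 254 in the highest. Within each class the listed share with an octamer was the lower, but the intervals overlapped in all 5.

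Whether a site can be seen also depends on the fragment. The flanks of 331 distal sites (99.1%) were unique beside HindIII motifs, against 87.3% of unlisted motifs, and motifs without unique flanks were listed at 0.111% (3 of 2707). With unique flanks only, the gene body odds ratio was 1.70 (1.33 to 2.18). The nearer HindIII neighbour lay at a median of 1274 bp for distal sites (1088 to 1599 bp) and 1130 bp for unlisted motifs. The nearest DpnII motif was at a median of 135 bp and 131 bp. Motifs with a DpnII motif before the next HindIII motif on both sides were listed at 1.67% and those with one on a single side at 1.12%. Those with none on either side were listed at 0.971% (3 of 309, 0.201 to 2.81%), an interval that takes in both of these values. A DpnII motif within 20 bp or over 400 bp away went with a lower share, 0.883% and 0.920%, than any distance between these. The part of mapping and fragment length in the differences between classes was tested for flanks only.

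The nearest other listed site lay at a median of 75.4 kb from a distal site and 86.2 kb from an unlisted distal motif. It was within 10 kb for 39 sites (11.7%) and for 7.88% of unlisted motifs, and over 100 kb away for 38.6% and 45.3%. The neighbouring HindIII motifs of distal sites were listed in 19 of 668 cases (2.84%, 1.72 to 4.41%), against 1.53% (1.41 to 1.65%) beside unlisted distal motifs. A pair of neighbouring distal sites is counted from both of its ends, so the cases are not independent and the interval for distal sites is too narrow. The interval took in the value beside unlisted motifs of the same setting under 3 alternatives: starts of all transcripts (1.83%, 0.840 to 3.44%, against 1.37%), starts of genes of every type (2.11%, 1.09 to 3.65%, against 1.51%) and Sfi1 left out (2.28%, 1.28 to 3.74%, against 1.51%). The 3 closest pairs printed above are of this kind.

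The 41 windows held 8.15 ± 2.56 distal sites each (SD over windows), from 3 to 15. Their listed share was 1.65 ± 0.690% for distal motifs and 2.59 ± 1.22% for gene-start motifs (SD, 41 windows). The interval of the distal share included the pooled 1.55% in 37 windows, but with 3 to 15 sites a window these intervals are wide, and the shares ran from 0.566 to 3.42%. Across the 41 windows, which share the same libraries and partly adjoin each other, the distal share correlated with median GC (Pearson's r 0.584, Spearman's rho 0.579), with gene starts per Mb (0.332 and 0.354) and with the gene-start share (0.277 and 0.354). These are descriptions, since GC and gene density were not separated.

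**Figure D4:**
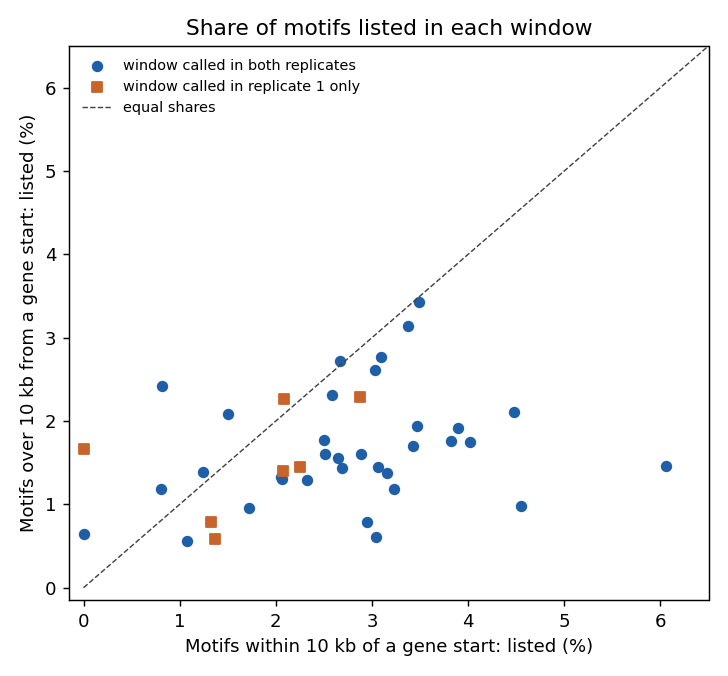
Percentage of motifs listed within 10 kb of a gene start (x axis) and over 10 kb from one (y axis) in each of 41 windows; circles are windows called in both replicates, squares those called in replicate 1 only, and the dashed line marks equal shares. Of the windows, 33 lie below the line and 8 above it.

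The distal share was also set out by window list. Windows called in both replicates held 276 distal sites and a share of 1.60% (1.42 to 1.80%), and the 7 windows called in replicate 1 only, all of them next to a window called in both, held 58 and a share of 1.35% (1.03 to 1.74%). Per window this was 1.68 ± 0.702% (SD, 34 windows) and 1.49 ± 0.657% (SD, 7 windows). The pooled intervals overlapped, and 7 windows are too few to exclude a difference.

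The window with the most distal sites was at chr2:30096717-32926859, with 15 of 438 distal motifs listed (3.42%, 1.93 to 5.59%), 6 of them between genes. It includes the Hmcn2 pair. A window at chr8:122036096-124814805 followed with 13 sites, all inside gene bodies, although 468 of its 478 distal motifs lay in gene bodies, and the long annotated body of Gm20388 covers much of it. Windows at chr15:97436967-100087140 and chr11:3011716-5499341 held 12 each, and 4 windows held 11. Of these 4, the one with the highest distal share was at chr19:3000855-5736492 (2.77%), with 10 sites among 245 gene-body motifs and 1 among 152 motifs between genes. At the other end, windows at chrX:68780476-71303459 and chr5:135861976-139300947 held 3 each. The chromosome 5 window had 11 listed sites near gene starts (3.04% of 362 motifs) beside its distal share of 0.613%.

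By chromosome, 8 carried 37 distal sites in 4 windows (2.13%), 11 carried 31 in 3 windows (2.28%) and 10 carried 28 in 3 windows (1.86%). Chromosome 15 had the largest share, 3.14% (12 of 382, 1 window). Chromosome X had 8 sites in 2 windows and a share of 0.614% (8 of 1302, 0.266 to 1.21%), and all 8 lay between genes although 142 and 150 of the distal motifs of its windows were in gene bodies.

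Distal sites were spread over many genes. A body of 173 protein-coding genes held at least 1, and 143 of these held only 1. The genes named below were chosen for holding the most sites, so their numbers of sites are high by choice, and their shares can be too. Sfi1, which encodes a centrin-binding protein of the centrosome, lies at chr11:3031853-3093466 and had 5 of its 19 distal motifs listed (26.3%) and 1 further site near its start. Its sites lay from 15.3 to 60.5 kb from the nearest gene start, 3 of them in exons, and 4 of the 5 lay within 3.02 kb of the 5′ end of another annotated transcript. Baz2a had 3 of 21 distal motifs listed (14.3%), all intronic.

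Ppp6r3, a regulatory subunit of a protein phosphatase, had 3 of 37 distal motifs listed (8.11%), all intronic, at 18.9 to 63.0 kb from a start and with 39.8 to 40.9% GC. Igf2bp3, an RNA-binding protein gene, had 3 of 40 (7.50%). By contrast, 1700112E06Rik had 5 sites but 310 distal motifs (1.61%), close to the share of all distal motifs, over a body of 1036 kb.

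There were 24 genes with 2 distal sites, and those with the highest share of their motifs listed are named, so their shares are high by choice. They included Lrp1, an endocytic receptor of the LDL receptor family, Ppp1r13b, a p53-binding protein, Sfxn1, a mitochondrial serine transporter, and 1700030F18Rik, each with 12 distal motifs. Mark3, a kinase of microtubule-associated proteins, had 2 of 17. Dgcr2, a putative adhesion receptor, had 2 of 14, and the same sites count for Gm20518, which overlaps it. Gm20388 spanned 19 sites and 738 motifs, but its annotated body of over 2 Mb covers many other genes, so its count is uncertain.

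Genes of 3 lists were looked up: pluripotency factors, chromatin regulators, and neural adhesion and synapse genes with long bodies. Of 29 annotated pluripotency factors, 1 lay in a window, Klf2. Its body has no distal motif, and 1 distal site had Klf2 as its nearest start, at 44.4 kb in an intron of Eps15l1 (chr8:74887285-74887290). Of 38 annotated chromatin regulators, 5 lay in windows, with 4 of their 55 distal motifs listed (7.27%, 2.02 to 17.6%). The 4 were the 3 sites of Baz2a, which was known to hold sites when the list was made, and 1 intronic site of Ctcf, the architectural DNA-binding protein, at chr8:108172650-108172655 (1 of 10). Kdm5b had 0 of 19, Hdac1 0 of 3 and Mll2 0 of 2. Hdac1 was the nearest start to 1 distal site, at 12.7 kb in an intron of Lck (chr4:129232658-129232663). Hdac1 and Mll2 each also had 1 listed site within 10 kb of a gene start. Of 25 neural adhesion and synapse genes, 1 lay in a window. This was Nrxn2, a presynaptic receptor, with 2 of its 20 distal motifs listed. These lists are too small for their shares to be set apart from the 2.18% of gene bodies. The share of all protein-coding genes that lie in the windows was not computed, so the numbers of list genes in windows are descriptions only.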

How the data were processed

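The deposited tables hold positions and no other unit: the authors selected reads beginning with the bait primer, mapped the rest with BWA to mm9, matched them to HindIII sites and called enriched windows in each replicate by permutation. Read depth per site is not given, nor is the minimum number of reads, so precision from depth is unknown.

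Here every HindIII motif was located in NCBIM37, the assembly named mm9, and annotated from GENCODE M1. Sites were counted by their start. Windows were those of replicate 1 that hold inter-chromosomal sites. Odds ratios used window as stratum, with Robins-Breslow-Greenland 95% intervals, and medians used order-statistic intervals. Calculations used Python 3.11.15, pandas 2.3.3, SciPy 1.17.1, statsmodels 0.14.6 and matplotlib 3.10.9, and were tested on simulated data. Named genes were up to 12 protein-coding genes with most distal sites (at least 2, ties by the share of their distal motifs listed and then by name, bodies over 2 Mb named as uncertain), with the 3 sites farthest from a start, the 3 closest pairs and the 5 windows with most sites (ties by the higher share). Windows at the lower end, chromosomes and list genes were named after their values were seen. The sites and lists were chosen with earlier results of these data known. The alternatives were other distance limits, other sets of gene starts, unique flanks, and leaving out windows or replicates. Others, for bodies over 2 Mb, Sfi1 and abutting windows, were chosen after seeing the data, as was the octamer search. Sites on chromosome 17 were not used here.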

Additional observations from a re-analysis of the deposited data

How the results depend on the processing

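Of 111 recomputed values of 12 results, 102 stayed within the reported 95% interval (1 SD for sites per window, 1.5 times for the number of sites), 9 moved and 0 reversed. With a limit of 5 kb, the share of distal sites near an internal start was 41.7%. With 20 kb there were 220 sites, a listed share of 1.38%, an internal start share of 20.9% and 5.37 sites per window. With the starts of all transcripts the listed share was 1.34% and the gene body share of sites 53.3%. With unique flanks only the listed share was 1.76%. With abutting windows joined there were 11.1 sites per region, the odds ratio of distal over gene-start motifs was 0.622, and that of gene body over between genes had an interval of 1.56 to 2.55. Leaving out replicate 1 leaves the windows called in both replicates, and leaving out replicate 2 leaves the reported setting, so neither is counted above, nor are results that a setting cannot touch. The internal start share under all transcript starts, and the share near other gene starts under starts of every type, are fixed by construction and have no value. No paired analysis was possible because there is 1 group and the site table does not separate the replicates. The files hold no read numbers, so a motif that is not listed may have been missed for lack of depth.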
